A study of Mus musculus with 238 samples.

Results

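A set of 10 genes of insulin and insulin-like growth factor (IGF) signalling was followed through every brain region and the liver of aged mice: the ligand genes Igf1 and Igf2, the receptor genes Igf1r, Insr and Ghr, the substrate genes Irs1 and Irs2, and the binding protein genes Igfbp1, Igfbp2 and Igfbp5. The list was fixed by gene name, and all 10 names were found among the 21076 gene rows of the count table. RNA of C57BL/6JN mice aged 19 months was sequenced in bulk in 2 separate experiments. In the diet experiment, females were dietary restricted (aDR in the brain libraries and DR in the liver libraries of the same animals, 5 mice) or fed ad libitum (AL, 4 mice), which gave 131 brain libraries over 15 regions and 9 liver libraries. In the plasma experiment, males received plasma of young mice (YMP, 3 mice) or phosphate-buffered saline (PBS, 4 mice) by retro-orbital injection, with 98 libraries from the same 15 regions and none from liver. Sex and experiment therefore cannot be told apart, and the dose of plasma and the length of the diet are not given in the sources used here. The comparisons asked where in the brain each intervention changes expression.

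Insulin and the IGFs act through closely related receptor tyrosine kinases, the insulin receptor (Insr) and the IGF1 receptor (Igf1r). Both phosphorylate the insulin receptor substrates (Irs1 and Irs2), which recruit phosphoinositide 3-kinase and activate Akt, and Akt keeps FoxO transcription factors out of the nucleus. Growth hormone acts on its receptor (Ghr) in the liver to drive the release of IGF1 into the blood, where IGF-binding proteins carry it and limit its access to cells. In the brain, Igf1 is made by neurons and glia, while Igf2 and Igfbp2 are known products of the choroid plexus, which secretes cerebrospinal fluid, and of the meninges.

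The median library held 8.44 M counts, where M is the prefix mega, the shallowest 0.606 M and the deepest 32.4 M, and 6 libraries were under 2 M. Levels are given as counts-per-million values of the library total (CPM), and levels of different genes are compared only as CPM per kilobase of merged exons (CPM per kb). A bulk level cannot tell fewer cells of a type from less RNA per cell. Most region markers were highest in their own region, but Fibcd1 of the hippocampal list was highest in the choroid plexus libraries, Rorb of the cortical list in thalamus, and the oligodendrocyte genes Mbp and Mag in pons and Mog in medulla rather than in corpus callosum. In libraries labelled choroid plexus the summed level of 12 choroid plexus markers (Ttr, Folr1 and others) ran from 163 CPM in YMP mouse 73 to 15910 CPM in YMP mouse 77. The same markers reached 19660 CPM in corpus callosum and 20890 CPM in SVZ libraries and lay under 100 CPM in others.

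The ligand gene Igf1 (chr10:87858265-87937042, plus strand, GRCm38) was expressed mainly in the liver. In AL mice it stood at 92.8 ± 12 CPM per kb (SD, n = 4) in liver, while the control means of the 15 brain regions lay between 0.287 and 6.66 CPM per kb. Within the brain of the AL and PBS mice, Igf1 was highest in olfactory bulb, at 65.9 CPM (lowest library 54.9, median 68.5, highest 72). Thalamus followed at 34.6 CPM (19.1 to 48.5), and the difference between these neighbours passed the test (edgeR adjusted p = 5.93e-06). Cerebellum came next at 14.3 CPM, below thalamus (edgeR adjusted p = 4.99e-11). The 9 regions from cerebellum down to entorhinal cortex (9.28 CPM) did not differ from their neighbours beyond their spread. Entorhinal cortex was above hypothalamus (5.64 CPM; edgeR adjusted p = 0.000926), and caudate putamen was the lowest region at 2.85 CPM (1.63 to 4.22). Because the reads carry no strand, counts of Igf1 cannot be separated from those of its antisense neighbour Igf1os.

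Igf2 (chr7:142650766-142666816, minus strand), the imprinted second IGF ligand, had the opposite distribution between organs. In the liver of AL mice it stood at 0.0721 ± 0.0592 CPM per kb (SD, n = 4), with at most 10 counts in any of the 9 liver libraries, and it was not tested there. In control brain its region means ran from 1.18 CPM per kb in hypothalamus to 10.6 in corpus callosum. The 3 highest regions were corpus callosum (60.9 CPM, 2.22 to 130), choroid plexus (58.3 CPM, 18.1 to 94.3) and SVZ (36.7 CPM, 2.61 to 124). Of the 14 pairs of neighbouring regions 0 passed the test. Choroid plexus markers moved with these levels: over the libraries of all 4 groups, corpus callosum libraries with under 100 CPM of the summed markers held 2.22 to 2.96 CPM of Igf2 and those with 1257 CPM or more held 11.2 to 130. In SVZ the ranges were 2.61 to 4.81 CPM under 100 CPM of the markers and 19.5 to 124 CPM at 3054 CPM of them or more. Igf2 overlaps Gm49394, Mir483 and Igf2os, whose reads cannot be told apart from its own.

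Among the receptors, Igf1r (chr7:67952827-68233668, plus strand) was a brain rather than a liver transcript, with region means of 3.28 to 6.89 CPM per kb against 0.338 ± 0.136 (SD, n = 4) in the liver of AL mice. Its level varied little: the highest region, olfactory bulb, stood at 116 CPM (110 to 127) and the lowest, medulla, at 55 CPM (49.6 to 63.3). Olfactory bulb exceeded cerebellum (98.4 CPM; edgeR adjusted p = 0.000536), and thalamus (87.9 CPM) exceeded motor cortex (76.5 CPM; edgeR adjusted p = 0.0196). Hypothalamus and caudate putamen had like means per library total (59.9 and 59.6 CPM), yet after TMM scaling hypothalamus was the lower by 0.19 on the log2 scale (edgeR adjusted p = 0.00817).

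Insr (chr8:3122061-3279617, minus strand) stood at 7.11 ± 2.38 CPM per kb (SD, n = 4) in the liver of AL mice and at 1.59 to 3.63 in control brain regions. Cerebellum (49.8 CPM, 46.6 to 50.8) and olfactory bulb (46.6 CPM, 43.3 to 50.7) had overlapping values and lay above the other 13 regions. From olfactory bulb to hypothalamus (30 CPM) the level dropped by 0.64 on the log2 scale (edgeR adjusted p = 3.79e-14), and no later step down to medulla (21.9 CPM) passed the test. Insr overlaps Vmn2r-ps88 and Gm16180 on the other strand.

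The growth hormone receptor gene Ghr (chr15:3317760-3583492, minus strand) was a liver transcript, at 60.5 ± 6.86 CPM per kb (SD, n = 4) in AL mice against 0.691 to 3.24 over the brain regions. In brain it was highest in hypothalamus (29.4 CPM, 21.7 to 37.6) and SVZ (25.7 CPM, 20.3 to 34.3), which did not differ (edgeR adjusted p = 0.464). Its lowest level was in cerebellum (6.26 CPM, 4.83 to 8.24), below motor cortex (8.02 CPM; edgeR adjusted p = 0.00137).

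The substrate genes had unlike maps. Irs1 (chr1:82233101-82291416, minus strand) was highest in olfactory bulb (65.5 CPM, 61.1 to 75.6), then cerebellum (41.8 CPM, 34.9 to 52.1), then posterior hippocampus (24.2 CPM), and both steps passed the test (edgeR adjusted p = 1.16e-07 and 3.48e-07). Caudate putamen was its lowest region (8.21 CPM, 5.55 to 14.9), below corpus callosum (13.3 CPM; edgeR adjusted p = 3.8e-05). Irs2 (chr8:10984681-11008458, minus strand) was lowest where Irs1 was highest, at 29 CPM (21.4 to 34.3) in olfactory bulb, below caudate putamen (39.4 CPM; edgeR adjusted p = 7.88e-07). Its highest region was thalamus (72.2 CPM, 56.3 to 84.6), which did not differ from visual cortex (66.9 CPM; edgeR adjusted p = 0.557). Per kilobase, Irs2 ran from 4.59 to 11.4 CPM per kb over the brain regions and Irs1 from 0.898 to 7.17, while the liver of AL mice held 4.86 ± 3.01 and 3.31 ± 0.523 (SD, n = 4). Irs1 overlaps Gm9747 and Irs2 overlaps 9530052E02Rik, each on the other strand.

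The binding protein genes divided between the organs. Igfbp1 (chr11:7197782-7202546, plus strand), which encodes a liver-secreted binding protein known to rise in fasting, stood at 36.3 ± 13.4 CPM per kb (SD, n = 4) in the liver of AL mice. In brain, 211 of 229 libraries held 0 counts of it and 15 held 1 to 3, so it passed the low-count filter in no brain region. The 3 libraries with over 3 counts were all from cerebellum, and the highest held 5 counts. A count of 0 allows up to 3 counts per library, which is 0.354 CPM at the median brain depth and 4.95 CPM in the shallowest library.

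Igfbp2 (chr1:72824503-72852474, plus strand), which binds IGF2 with high affinity, was high in both organs, at 168 ± 21.9 CPM per kb (SD, n = 4) in the liver of AL mice. Its brain means ran from 3.06 CPM per kb in hypothalamus to 82.9 in choroid plexus. Choroid plexus (153 CPM, 47.2 to 213), corpus callosum (151 CPM, 6.95 to 356), olfactory bulb (132 CPM, 109 to 155) and SVZ (116 CPM, 19.6 to 387) led, and SVZ was above medulla (57.8 CPM; edgeR adjusted p = 0.0369). In the same marker-poor and marker-rich libraries as for Igf2, Igfbp2 stood at 5.44 to 6.95 and 26.3 to 356 CPM in corpus callosum, and at 6.95 to 19.6 and 65.4 to 387 CPM in SVZ. The part of choroid plexus transcript in these region means was not tested. Hypothalamus was the lowest (5.65 CPM, 1.53 to 12.7), below caudate putamen (16.3 CPM; edgeR adjusted p = 0.00873). Igfbp5 (chr1:72857932-72874884, minus strand), a matrix-binding member of the family, lies close to Igfbp2 on the same chromosome and had another map. It was highest in olfactory bulb (125 CPM, 102 to 140) and thalamus (106 CPM, 71.9 to 138), which did not differ (edgeR adjusted p = 0.443), and lowest in medulla (33.6 CPM, 21.5 to 58.4). Thalamus exceeded cerebellum (82.8 CPM; edgeR adjusted p = 0.007). In liver Igfbp5 stood at only 1.64 ± 1.24 CPM per kb (SD, n = 4).

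**Figure D1:**
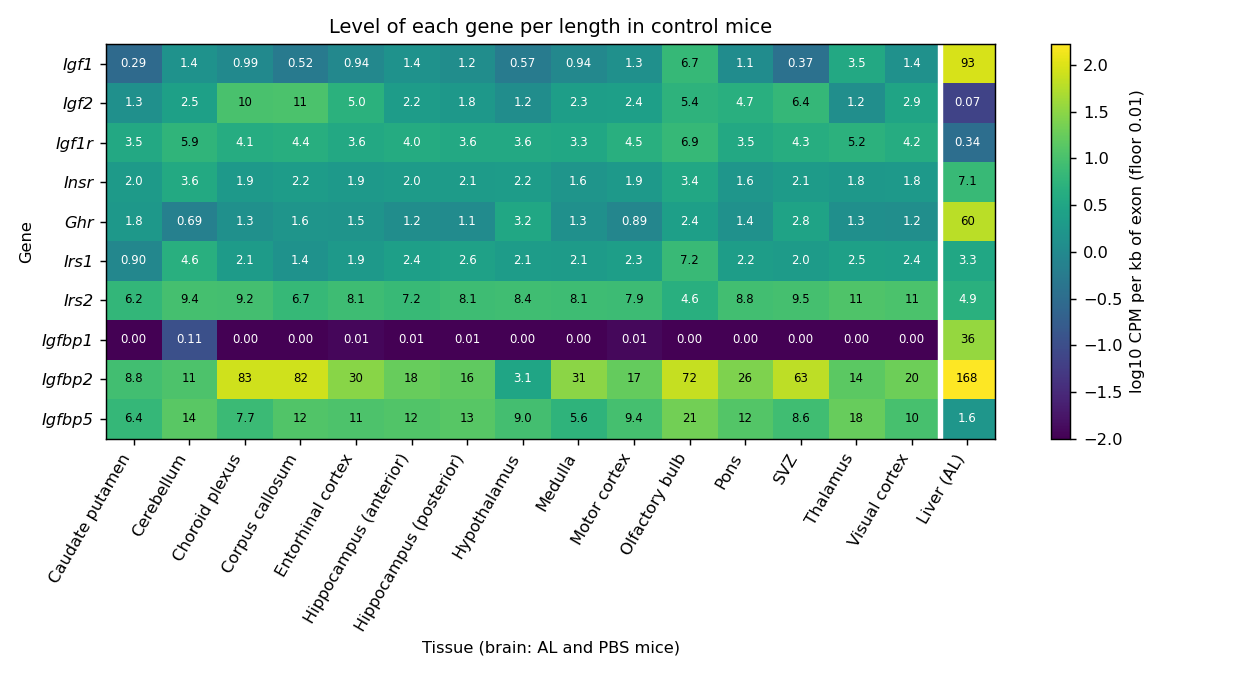
Rows are the 10 genes and columns the 15 brain regions (mean of AL and PBS libraries) and liver (mean of 4 AL libraries); colour and printed value give CPM per kb of exon, the colour on a log10 scale. Igf1, Ghr and Igfbp1 are highest in liver, and Igf2, Igf1r and Igfbp5 in brain. Among the brain regions, Igf2 and Igfbp2 share their highest columns in choroid plexus, corpus callosum, SVZ and olfactory bulb.

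Regional differences were the rule for all genes: 9 of the 9 members tested differed between the 15 regions of control mice, against 99.6% of all genes tested, so this count sets the members apart from nothing. Regions accounted for 90% of the variance of Igf1 and 88.2% for Irs1, against a median of 74.3% over all genes, and for 52.1% for Igf2, the lowest of the members. Region profiles of members were also compared with each other as a description over 15 region means, which share libraries and depth. Igf2 and Igfbp2 had the highest correlation of the 36 member pairs computed (Pearson r = 0.865), and Igf1 and Irs1 followed (r = 0.829). Among all 14250 genes at 1 CPM or more, the profiles nearest to Igf2 were those of Pcolce, Slc13a4 and Ppp1r3b (r = 0.949, 0.934 and 0.905). The nearest to Igfbp2 were Smad6, Pcolce and Igf2 itself (r = 0.889, 0.871 and 0.865). Igf1 was nearest to Depdc5, Gpr162 and B4galt5 (r = 0.904, 0.889 and 0.887), Insr to Zfx, Sp4 and Zfp866 (r = 0.986, 0.973 and 0.971) and Irs1 to Arhgef11, Zdhhc5 and Zfp867 (r = 0.944, 0.932 and 0.932). For Igf1r the nearest were Ccdc134, Zfp629 and Fgd6 (r = 0.905, 0.905 and 0.886), for Ghr Kcna5, Qpct and Tagap (r = 0.892, 0.892 and 0.881) and for Irs2 Yipf2, Larp1b and Gabbr2 (r = 0.882, 0.864 and 0.846). Igfbp5 had the least close neighbours, Eif2s3y, Pank3 and Zfp322a (r = 0.819, 0.761 and 0.759). Eif2s3y is Y-linked, and each region mean weighed the female AL mean and the male PBS mean equally.

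In the liver, Igfbp2 was higher in each of the 5 DR mice than in any of the 4 AL mice. The DR mice stood at 547, 507, 581, 529 and 871 CPM and the AL mice at 267, 292, 362 and 320 CPM, so the groups did not overlap. The difference was 1.05 on the log2 scale (SE 0.225), but it did not pass the threshold over all 11815 genes (edgeR adjusted p = 0.0967; DESeq2 adjusted p = 0.0012). Without DR mouse 67, the highest, it was 0.82 (edgeR adjusted p = 0.0538). The summed blood markers were lower in the same livers, at 55.3 to 95.1 CPM in the DR mice and 104 to 222 CPM in the AL mice, without overlap, and their part in the Igfbp2 difference was not tested. Of the 9 members tested in liver edgeR called 0, against 0.220% of all genes, and 1 had an unadjusted p under 0.05, against 9.09%. DESeq2 called 1, Igfbp2, against 1.90% of all genes.

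Igfbp1 gave a larger mean difference that came from 1 animal. DR mouse 67 held 418 CPM, while the other DR mice held 42.4, 30.9, 44.3 and 56.5 CPM and the AL mice 26.3, 59.6, 74.2 and 61.7 CPM. With mouse 67 the difference was 1.26 (SE 0.793; edgeR adjusted p = 0.721), and without it -0.33. The same animal stood apart in Ghr, at 1490 CPM against 552, 436, 406 and 604 CPM in the other DR mice and 624, 569, 511 and 486 CPM in the AL mice. The Ghr difference was 0.46 with mouse 67 (edgeR adjusted p = 0.835) and -0.12 without it. In that library the summed level of 8 hepatocyte markers was 102300 CPM, inside the range of 86930 to 121700 CPM over the 9 livers, and the library held 9.78 M counts. Its 8 markers of liver endothelial and Kupffer cells summed to 173 CPM, the lowest of the 9 livers (next 191 CPM, highest 633 CPM). Their part in the Igfbp1 and Ghr values was not tested.

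Igf1 itself overlapped between diets in liver. DR mice held 786, 1080, 1300, 969 and 885 CPM and AL mice 875, 1050, 975 and 777 CPM, a difference of 0.19 (SE 0.17; edgeR adjusted p = 0.847). Irs2 separated the livers without regard to diet: DR mice 62 and 64 and AL mouse 66 held 54.8, 54.1 and 57.2 CPM, and the other 6 livers between 16 and 32.1 CPM. Insr was highest in the same 3 livers (170, 138 and 143 CPM against at most 102 CPM elsewhere). Neither gene passed the test by diet (Insr 0.20, edgeR adjusted p = 0.929; Irs2 0.23, edgeR adjusted p = 0.954). Differences for Igf1r, Irs1 and Igfbp5 were 0.58, -0.03 and 0.29, all with overlapping groups. The median of the 9 members was 0.29 on the log2 scale, against 0.018 over all genes tested.

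**Figure D2:**
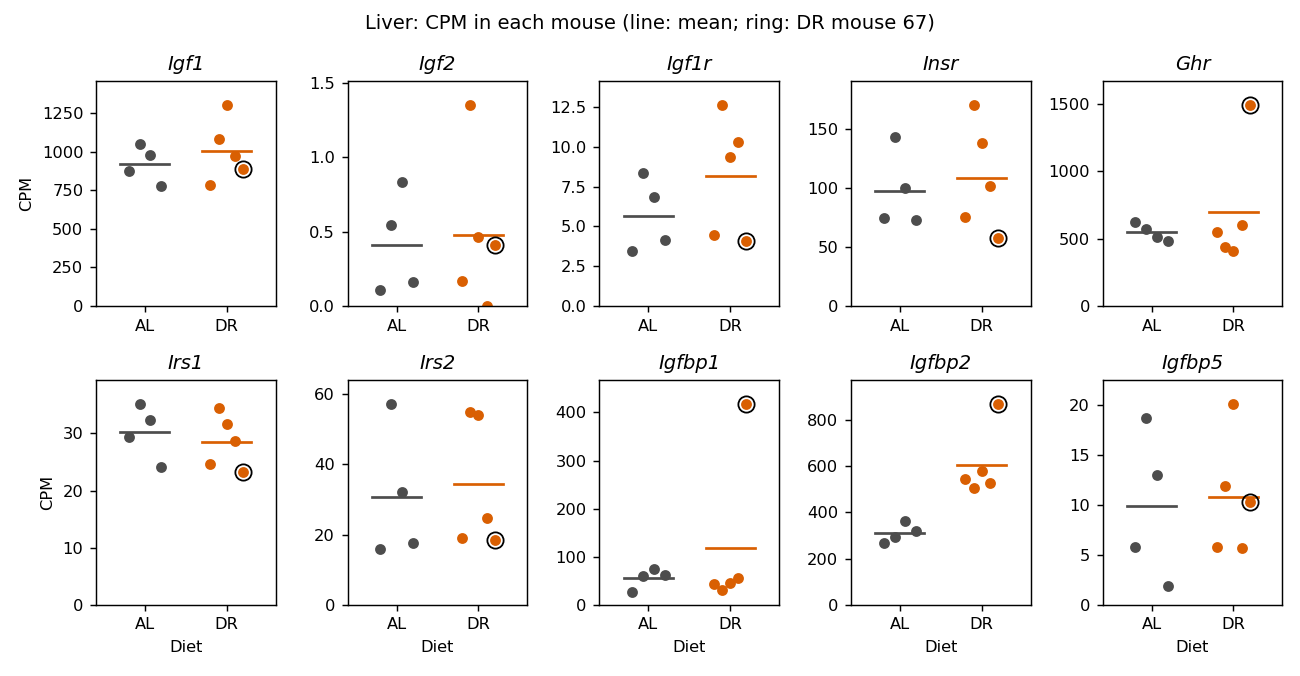
Each panel shows CPM of 1 gene in each liver library, AL (4 mice, grey) and DR (5 mice, orange), with the group mean as a line and DR mouse 67 ringed; each axis starts at 0 and has its own scale. Igfbp2 is the panel whose groups do not overlap, and mouse 67 stands apart in Igfbp1, Ghr and Igfbp2.

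Promoter sequence, from the RefSeq-based table of GRCm38.p6 (250 bases before to 50 after a start), is shown for the binding protein genes with the liver values above. The windows were searched on both strands for GTAAACA (FoxO family), CAAAACA (insulin response), AGAACA (a core hexamer of the glucocorticoid response element) and TTCNNNGAA (STAT5). Capitals mark every match to any of these 4 motifs, which can overlap. The window of Igfbp1 is chr11:7197537-7197836 (plus strand) and that of the upstream start of Igfbp2 is chr1:72824230-72824529 (plus strand).
Igfbp1: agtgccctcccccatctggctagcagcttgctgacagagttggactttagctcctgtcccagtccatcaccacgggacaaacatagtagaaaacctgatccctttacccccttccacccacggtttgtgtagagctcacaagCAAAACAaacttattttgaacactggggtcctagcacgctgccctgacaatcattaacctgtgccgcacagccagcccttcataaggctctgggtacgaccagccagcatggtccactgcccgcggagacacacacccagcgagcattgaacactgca
Igfbp2: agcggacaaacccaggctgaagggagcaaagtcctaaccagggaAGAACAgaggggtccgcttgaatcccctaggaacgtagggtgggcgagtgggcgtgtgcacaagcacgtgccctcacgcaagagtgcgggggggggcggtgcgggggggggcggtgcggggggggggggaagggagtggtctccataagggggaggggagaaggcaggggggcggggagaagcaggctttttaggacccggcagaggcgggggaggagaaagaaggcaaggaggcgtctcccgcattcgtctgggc
The Igfbp1 window held 1 match to CAAAACA and the Igfbp2 window 1 match to AGAACA. Over the 14 windows of the 9 members in the table, CAAAACA was found in 3 (Irs1, Irs2 and Igfbp1), AGAACA in 2 (Igf2 and Igfbp2) and the other motifs in 0. Of all 32851 promoter windows, 6.28% held CAAAACA, 18.97% AGAACA, 3.65% GTAAACA and 8.30% TTCNNNGAA. A match is a string of letters in this window and no evidence of binding.

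In the brain, no member passed the test between restricted and freely fed mice. Over the 16 tissues of the diet experiment, 144 of 160 member-by-tissue tests could be made and edgeR called 0 of them, against 0.0616% of all gene-by-tissue tests. An unadjusted p under 0.05 was found in 9 (5 higher and 4 lower in restricted mice), which is 6.25% of the members' tests against 6.39% of all tests. Groups did not overlap in 3, Igfbp2 in liver, Irs1 in hypothalamus and Igfbp5 in anterior hippocampus, against 3.18% of all tests.

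Among the brain differences with the smallest p, edgeR called none. Igfbp5 in anterior hippocampus stood at 50.7, 55, 40.6, 49.6 and 52.5 CPM in aDR mice and at 59.2, 68.1, 64.1 and 83 CPM in AL mice, without overlap (-0.44, SE 0.106; edgeR adjusted p = 1). Igf1 in olfactory bulb, its highest region, was 51.1, 47.7, 61.8, 47.4 and 52.1 CPM in aDR mice and 68, 67.4, 56.4 and 72 CPM in AL mice, where aDR mouse 64 lay above AL mouse 68 (-0.33, SE 0.085; edgeR adjusted p = 0.164). DESeq2 called this Igf1 difference and the one of Igfbp2 in liver, 2 in all, against 0.371% of all its gene-by-tissue tests. Igfbp5 was higher in cerebellum (0.231, SE 0.0708, edgeR adjusted p = 0.211), against its direction in anterior hippocampus. In medulla it was lower (-0.799, SE 0.257, edgeR adjusted p = 0.664), and groups overlapped in both regions. Ghr was lower in visual cortex (-0.334) and higher in medulla (0.329), and Irs2 was higher in visual cortex (0.203), all with overlapping groups. Irs1 in hypothalamus did not overlap between the groups (0.29, SE 0.107, edgeR adjusted p = 0.986). It was 22.9, 21.9, 21 and 18.1 CPM in aDR mice and 18, 17.6, 16.5 and 16.5 CPM in AL mice. The summed mural markers were lower in the same aDR libraries, at 107 to 117 against 118 to 146 CPM, without overlap. Their part in the Irs1 difference was not tested.

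With 1 value per mouse over the brain regions (the mouse term of a fit of log2 CPM on region and mouse), 0 of 9 members were called by limma and 0 had an unadjusted p under 0.05, against 0.922% and 16.1% of all genes. Insr gave the smallest p. Its mouse values were 4.969, 4.926, 4.848, 4.822 and 4.948 log2 CPM in aDR mice and 4.878, 4.756, 4.838 and 4.812 in AL mice, overlapping, with a difference of 0.08 (SE 0.0406; limma adjusted p = 0.364). The sign was positive in 12 of 15 regions. Igfbp5 was lower in 12 of 15 regions (-0.10, SE 0.0805) and Igf1 in 11 of 15 (-0.09, SE 0.0694), both with overlapping mouse values. Members whose mouse values did not overlap between diets numbered 0, against 8.30% of all genes. The diet effect differed between brain regions for 0 of 9 members (adjusted p = 1 for each in the edgeR F test, 0 with an unadjusted p under 0.05), against 0.0128% of all genes called and 2.13% with an unadjusted p under 0.05.

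Liver and brain were compared directly in the same mice. The change in liver minus that in brain was called for 0 of the 8 members tested in both organs, against 0.0881% of all genes called, and 1 had an unadjusted p under 0.05, against 8.03% of all genes. It was largest for Igfbp2, at 0.91 on the log2 scale (SE 0.339; limma adjusted p = 0.492).

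In the plasma experiment, Igf2 and Igfbp2 stood lower in the 3 YMP mice than in the 4 PBS mice over the brain as a whole, without passing the threshold there, and both were called in corpus callosum. With 1 value per mouse, Igf2 stood at 3.475, 3.354 and 3.451 log2 CPM in the YMP mice and at 4.735, 4.3, 3.98 and 3.721 in the PBS mice, without overlap (-0.76, SE 0.219; limma adjusted p = 0.481). Igfbp2 stood at 4.694, 4.68 and 4.613 in the YMP mice and at 5.638, 5.804, 5.171 and 5.069 in the PBS mice, also without overlap (-0.76, SE 0.179; limma adjusted p = 0.384). Igfbp5 was 5.922, 5.857 and 5.831 against 6.052, 5.993, 6.021 and 6.246 (-0.21, SE 0.0688; limma adjusted p = 0.501). Igf1 was 3.46, 3.438 and 3.528 against 3.374, 3.406, 3.429 and 3.204 (0.12, SE 0.0639; limma adjusted p = 0.659).

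Summed markers of some cell types also separated these mice. The summed choroid plexus markers, as 1 value per mouse, stood at 4.86, 5.507 and 5.262 log2 CPM in the YMP mice and at 6.756, 7.454, 6.233 and 6.33 in the PBS mice, without overlap (-1.48). The leptomeningeal fibroblast markers stood at 6.888, 6.567 and 6.924 against 7.511, 7.098, 7.058 and 6.968, also without overlap (-0.366). The astrocyte markers stood at 11.24, 11.28 and 11.29 against 11.36, 11.33, 11.38 and 11.36, a smaller difference without overlap (-0.0895). The part of these markers in the Igf2, Igfbp2, Igfbp5 and Igf1 differences was not tested.

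None of the members passed the threshold: limma called 0 of 9 members, as it called 0% of all genes. An unadjusted p under 0.05 was found for 3 of 9 members, Igf2, Igfbp2 and Igfbp5, against 8.09% of all genes. Igf2, Igfbp2, Igfbp5 and Igf1, 4 of 9, had mouse values that did not overlap, against 10% of all genes. The sign of Igfbp5 was negative in 13 of 15 regions and that of Irs2 positive in 13 of 15, although the mouse values of Irs2 overlapped (0.14, SE 0.118; limma adjusted p = 0.783). A fit of all libraries with the mouse as a block (limma voom) called Igf2 (-1.0, adjusted p = 0.0467) and Irs2 (0.21, adjusted p = 0.0474), 2 of 9 against 2.97% of all genes. A fit without choroid plexus, corpus callosum and SVZ was not planned beforehand. Corpus callosum and SVZ held the largest differences of Igf2 and Igfbp2, so smaller values had to follow. They were -0.254 and -0.253 (limma adjusted p = 0.958 for both), and the difference of Igfbp5 in this fit was -0.225.

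**Figure D3:**
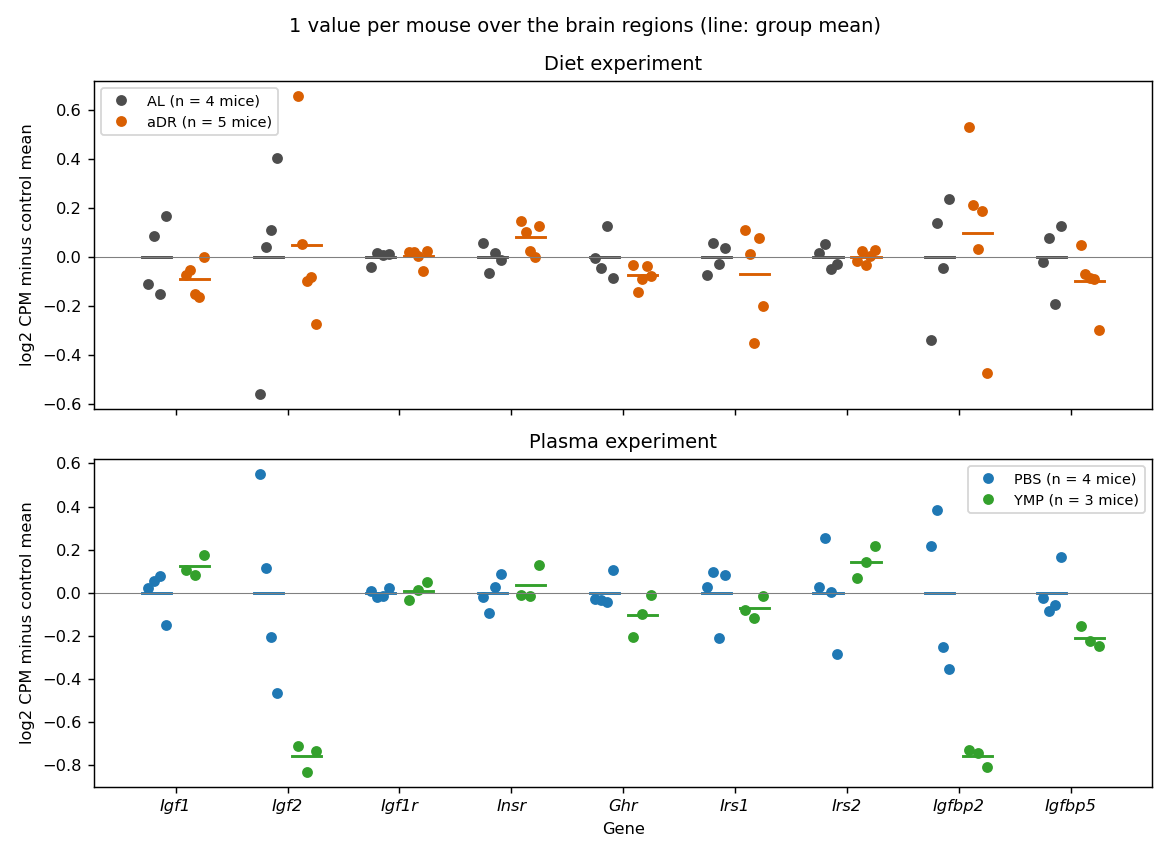
Each point is 1 mouse: its log2 CPM over the brain regions minus the mean of the control mice, for 9 genes (Igfbp1 was too low), with lines at group means; diet above, plasma below. The 3 YMP mice lie below all 4 PBS mice for Igf2, Igfbp2 and Igfbp5, and above them for Igf1, while the diet groups overlap in every gene.

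The plasma effect of both genes differed between regions. In the F test of region by treatment, Igf2 (edgeR adjusted p = 0.000586) and Igfbp2 (edgeR adjusted p = 6.9e-05) were called, 2 of 9 members against 0.824% of all genes, and 3 members had an unadjusted p under 0.05, against 7.70% of all genes. Without choroid plexus, corpus callosum and SVZ, an unplanned choice that takes out the regions with the largest differences, 0 members were called. Without YMP mouse 81 the count was also 0, and without YMP mouse 77 it was 1, Igfbp2.

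Within regions, 135 of 150 member tests could be made and edgeR called 2, Igf2 and Igfbp2 in corpus callosum, against 0.0127% of all gene-by-region tests and 0.184% of those in corpus callosum. An unadjusted p under 0.05 was found in 25 (9 higher and 16 lower in YMP mice), against 6.11% of all tests, and groups did not overlap in 25 (8 higher), against 9.23% of all tests. DESeq2 called 5, against 0.465% of all its gene-by-region tests: both genes in corpus callosum and SVZ, and Igf2 in cerebellum.

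In corpus callosum, Igf2 stood at 2.81 and 2.96 CPM in YMP mice 77 and 81 and at 130, 96.3 and 34.6 CPM in PBS mice 76, 80 and 84 (-4.93, SE 0.605; edgeR adjusted p = 0.0397). Igfbp2 stood at 5.44 and 6.69 CPM in the YMP mice and at 356, 221 and 83 CPM in the PBS mice (-5.17, SE 0.646; edgeR adjusted p = 0.0397). Every PBS library was over 10 times as high as either YMP library. Both calls were lost without PBS mouse 80 (edgeR adjusted p = 0.302 for each), without YMP mouse 77 (0.666 and 0.695) and without YMP mouse 81 (0.936 for each), while the differences lay between -4.86 and -5.32. Leaving out either YMP mouse leaves a lone YMP library, which is assumed to vary like the PBS libraries.

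SVZ gave the same picture in the same mice, with YMP mouse 73 and PBS mouse 72 added. Igf2 stood at 4.81, 2.87 and 3.96 CPM in the YMP mice and at 124, 53.8, 25 and 19.5 CPM in the PBS mice (-3.98, SE 0.755; edgeR adjusted p = 0.0936). Igfbp2 stood at 11.6, 6.95 and 13.1 CPM in the YMP mice and at 387, 168, 65.4 and 71.1 CPM in the PBS mice (-4.12, SE 0.76; edgeR adjusted p = 0.093). The groups did not overlap for either gene. Both differences passed the threshold without PBS mouse 72, the highest library (-3.18 and -3.31; edgeR adjusted p = 0.0217 for each).

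Choroid plexus markers moved with both genes in these regions. The 12 markers summed to 9.94 and 24.5 CPM in the corpus callosum of the YMP mice and to 5234 to 19660 CPM in that of the PBS mice, and in SVZ to 32.9 to 61.5 CPM against 3054 to 20890 CPM. All 12 were lower without overlap in both regions. Ttr, which encodes transthyretin, ran from 0 to 2.61 CPM in the YMP mice and from 4684 to 17422 CPM in the PBS mice in corpus callosum, where Aqp1 was at 0 in both YMP libraries, and from 0.11 to 3.56 CPM against 2602 to 18358 CPM in SVZ. The 12 leptomeningeal fibroblast markers (Dcn, Col1a1 and others) summed to 34.5 to 37.3 CPM against 45.1 to 126 CPM in corpus callosum and to 39.2 to 42.5 CPM against 79.1 to 190 CPM in SVZ. Of these 12, 8 had a lower mean in the YMP mice in corpus callosum, 6 were lower without overlap and 1 was higher without overlap. In SVZ all 12 had a lower mean, 7 of them without overlap. In corpus callosum the summed oligodendrocyte, microglia, astrocyte and endothelial markers were each higher in the YMP mice without overlap, at 31630 to 32400 CPM against 20850 to 24420 CPM for oligodendrocytes.

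The diet libraries spanned the same range within each group. In corpus callosum, AL mouse 63 had 50 CPM of the summed markers with 2.22 CPM of Igf2 and 6.95 CPM of Igfbp2, and aDR mouse 67 had 17 CPM with 2.79 and 6.51 CPM. AL mouse 66 had 12000 CPM of the markers with 91 CPM of Igf2 and 213 CPM of Igfbp2. Over all 12 corpus callosum libraries, the 4 with under 100 CPM of the markers (2 YMP, 1 AL and 1 aDR) held 2.22 to 2.96 CPM of Igf2 and 5.44 to 6.95 CPM of Igfbp2, and the other 8, with 1257 CPM or more, held 11.2 to 130 and 26.3 to 356 CPM.

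The 16 SVZ libraries were arranged alike. The 5 with under 100 CPM of the markers (3 YMP, 1 AL and 1 aDR) held 2.61 to 4.81 CPM of Igf2 and 6.95 to 19.6 CPM of Igfbp2, the 9 with 3054 CPM or more held 19.5 to 124 and 65.4 to 387 CPM, and the other 2 lay between, at 7.33 and 10.8 CPM of Igf2. Within corpus callosum and SVZ the treatment and the amount of choroid plexus transcript in the dissected tissue cannot be told apart.

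**Figure D4:**
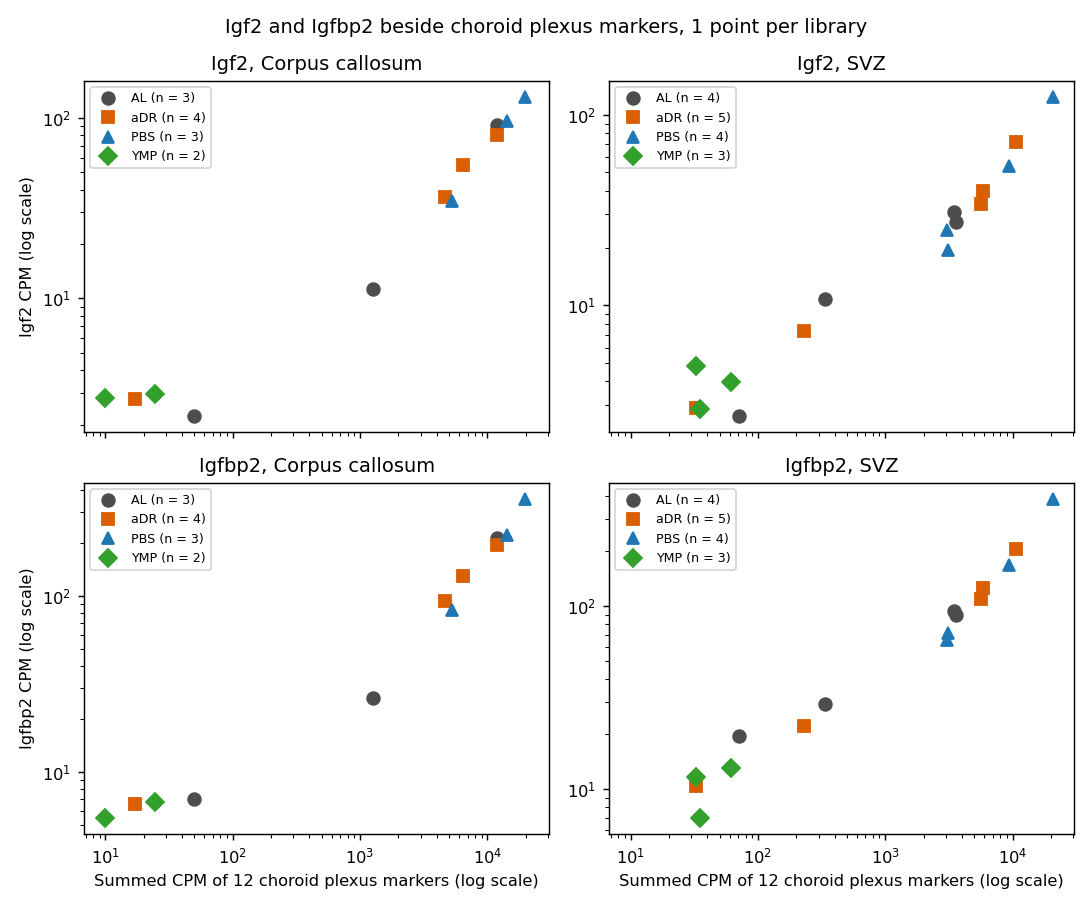
Each point is 1 library of corpus callosum (left) or SVZ (right); the x axis is the summed CPM of 12 choroid plexus markers and the y axis the CPM of Igf2 (top) or Igfbp2 (bottom), all on log scales, with colour and shape for the treatment. YMP libraries lie at the lower left, at 61.5 CPM of the markers or less, together with some AL and aDR libraries, and all PBS libraries lie at the upper right.

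In the choroid plexus libraries themselves the groups overlapped. Igf2 was 7.19, 81.9 and 65.2 CPM in the YMP mice and 68.3, 67.5, 87.7 and 63.9 CPM in the PBS mice (-0.47, SE 0.646; edgeR adjusted p = 1). The low value came from YMP mouse 73, whose library also had the lowest marker sum (163 CPM against 7258 CPM or more in the other plasma libraries). Igfbp2 was 35, 296 and 165 CPM against 172, 210, 212 and 178 CPM (-0.20, SE 0.575; edgeR adjusted p = 1), with the same library low.

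Elsewhere the 2 genes moved in either direction. In cerebellum Igf2 was 6.5, 5.43 and 4.69 CPM in the YMP mice and 18.6, 9.81 and 11.6 CPM in the PBS mice, without overlap (-1.27, SE 0.254; edgeR adjusted p = 0.362). The leptomeningeal markers summed to 87.7 to 101 CPM against 141 to 164 CPM, 9 of 12 without overlap. The summed choroid plexus markers overlapped, at 17.9 to 28.2 against 22.5 to 35.8 CPM, and 2 of the 12 were lower without overlap. Of the 12, 2 (Folr1 and Tmem72) were at 0 in every YMP library and 1 was at 0 in every PBS library. In posterior hippocampus Igf2 was 36.4, 5.76 and 27.2 CPM in the YMP mice and 6.04, 7.7 and 10.3 CPM in the PBS mice (1.52, SE 0.531; edgeR adjusted p = 1). The summed choroid plexus markers were higher there without overlap, at 21.8 to 30.7 CPM in the YMP mice and 9.55 to 16.2 CPM in the PBS mice. The single markers were mixed: of the 12, 2 were higher without overlap and 5 had a lower mean in the YMP mice. Ttr overlapped, at 0 to 0.37 CPM in the YMP mice and 0.132 to 0.522 CPM in the PBS mice. The leptomeningeal markers reached 532 CPM in the YMP library with the highest Igf2 and ran from 113 to 206 CPM in the PBS libraries. The mean of Igfbp2 was also higher in posterior hippocampus (72, 23 and 54.8 against 27.4, 24.4 and 30.8 CPM; 0.85, SE 0.332; edgeR adjusted p = 1), where YMP mouse 77 lay below the PBS mice. In hypothalamus it was higher without overlap (6.54, 5.67 and 6.45 against 5.09, 5.38 and 4.34 CPM; 0.33, edgeR adjusted p = 0.998). In caudate putamen it was lower without overlap, at 4.23, 4.44 and 3.3 CPM against 5.65, 86.2, 4.74 and 5.45 CPM (-2.68, SE 1.19; edgeR adjusted p = 0.49). There the single high PBS library (mouse 76, 27.8 CPM of Igf2 and 86.2 CPM of Igfbp2) had 3712 CPM of choroid plexus markers, and the other 3 PBS libraries held 2.68 to 5.25 and 4.74 to 5.65 CPM. The part of these cell types in the Igf2 and Igfbp2 values was not tested.

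**Figure D5:**
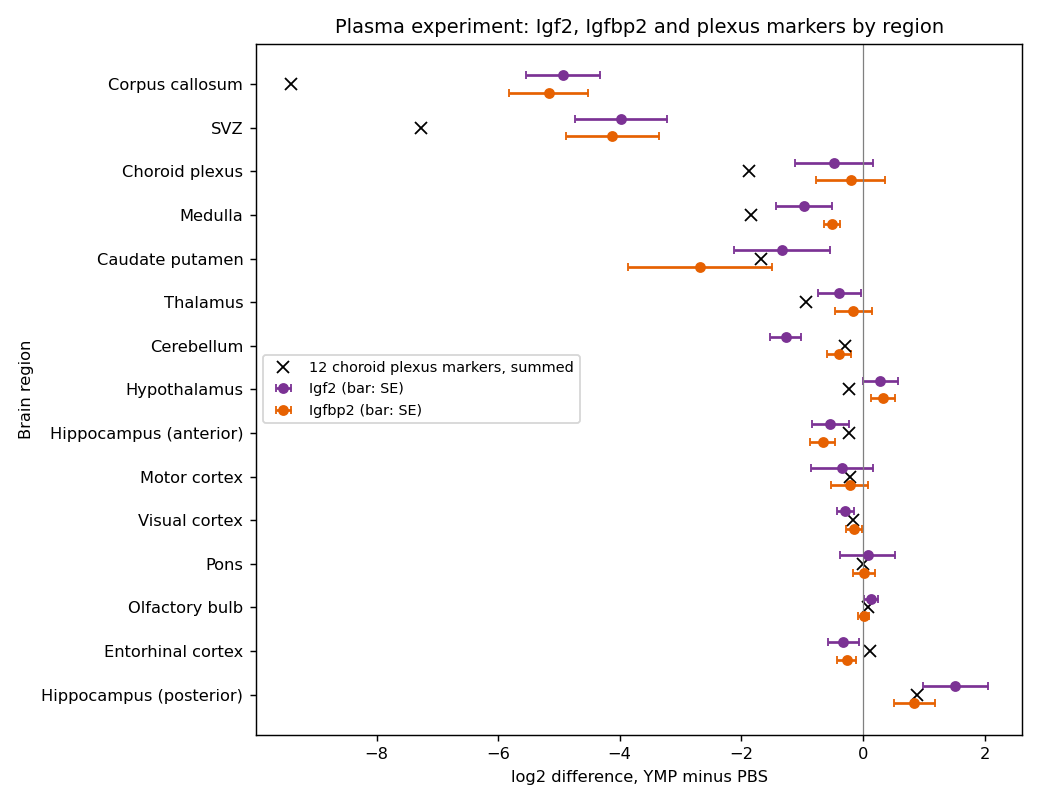
Points give the log2 difference (YMP minus PBS) of Igf2 and Igfbp2 in each brain region, with bars for the SE, and crosses that of the summed choroid plexus markers; regions are ordered by the crosses. Corpus callosum (-4.93 for Igf2 and -5.17 for Igfbp2) and SVZ (-3.98 and -4.12) lie below the other 13 regions, and the crosses are lowest in the same regions (-9.41 and -7.27).

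The remaining plasma differences named here lay between -0.70 and 0.82 on the log2 scale, and 0 were called by edgeR. Irs2 was without overlap higher in the YMP mice in corpus callosum (50.3 and 60.4 against 43.3, 38.5 and 34 CPM; 0.50), cerebellum (72.5, 72.8 and 64.7 against 64.3, 54 and 50.6 CPM; 0.31), hypothalamus (0.24) and visual cortex (0.405). Igfbp5 was without overlap lower in caudate putamen (29.5, 27.2 and 30.2 against 35.6, 55.6, 40.3 and 46.9 CPM; -0.62), choroid plexus (-0.46), motor cortex (-0.44) and visual cortex (-0.29). Igfbp2 was without overlap lower in anterior hippocampus (26, 23.3 and 22.7 against 40.6, 50.7, 34.2 and 27.7 CPM; -0.66) and medulla (48.4, 56.1 and 38.9 against 69, 56.3, 65.2 and 76.5 CPM; -0.51). In medulla the choroid plexus markers summed to 10.4 to 14 CPM in the YMP mice and 15.7 to 350 CPM in the PBS mice and the microglia markers to 476 to 517 against 537 to 734 CPM, and in anterior hippocampus the oligodendrocyte markers summed to 6715 to 7915 against 8048 to 15520 CPM, all without overlap. Astrocyte markers were lower without overlap in caudate putamen (1639 to 1798 against 2097 to 3135 CPM), and endothelial, mural, microglia and leptomeningeal markers in visual cortex. In hypothalamus the blood markers were lower without overlap (2.37 to 5.55 against 5.86 to 16.6 CPM). The part of these markers in the differences of the same regions was not tested. Igf1 in hypothalamus was 8.82, 11.5 and 6.75 CPM in the YMP mice and 5.55, 5.38 and 4.34 CPM in the PBS mice (0.82, SE 0.252; edgeR adjusted p = 0.998). Insr went both ways, at 33.6, 34.8 and 33.5 against 27.8, 26.5, 28.8 and 30 CPM in SVZ (0.25) and at 46.2, 43.3 and 44.3 against 50.8, 50.3 and 50.2 CPM in cerebellum (-0.17). Ghr differences with an unadjusted p under 0.05 were all negative (SVZ -0.70, hypothalamus -0.44 and choroid plexus -0.34), and those of Irs1 were 0.22 in olfactory bulb and -0.63 in SVZ. In corpus callosum Ghr (-0.4) and Irs1 (-0.504) were lower without overlap, with an unadjusted edgeR p over 0.05. Some summed markers of corpus callosum, SVZ and cerebellum also separated the groups, as given above. Their part in the Ghr, Irs1, Irs2 and Insr differences of these regions was not tested. Igf1r, the shared receptor of both ligands, had no difference with an unadjusted p under 0.05 in any tissue of either experiment.

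Other genes of the pathway (51 genes from insulin through Akt and FoxO to the growth hormone signal) were examined from a fixed list. Across brain regions, limma called 0 of 47 tested in the diet experiment and 0 of 46 in the plasma experiment, and 6 (2 higher, 4 lower) and 3 (1 higher, 2 lower) had an unadjusted p under 0.05, against 16.1% and 8.09% of all genes. The list's median difference was -0.0063 for diet and 0.022 for plasma, against -0.0062 and -0.0037 over all genes. Htra1, a secreted protease known to cleave IGF-binding proteins, came nearest to the threshold: 7.33, 7.282, 7.253, 7.228 and 7.272 log2 CPM in the aDR mice and 7.139, 7.116, 7.128 and 7.043 in the AL mice, without overlap (0.17, SE 0.0318; limma adjusted p = 0.0515). Pik3r2, a regulatory subunit of phosphoinositide 3-kinase (0.11, limma adjusted p = 0.195), and the docking protein gene Gab1 (-0.17, limma adjusted p = 0.202) followed. In the plasma experiment the smallest p values belonged to Igfbp7 (-0.13, limma adjusted p = 0.524), Ins2 (-0.35, limma adjusted p = 0.569) and Htra1 (0.12, limma adjusted p = 0.571). Ins2, the insulin gene, stood below 1 CPM in these values, at -1.308 log2 CPM or less in every mouse of the plasma experiment.

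Within tissues, edgeR called 0 of 627 tests of the list for diet and 0 of 588 for plasma. An unadjusted p under 0.05 was found for 34 higher and 21 lower in the diet tests (8.77%, against 6.39% of all genes' tests) and for 30 higher and 19 lower in the plasma tests (8.33%, against 6.11%). The smallest p values belonged to Socs2, a feedback inhibitor of growth hormone signalling, in olfactory bulb (-0.30, edgeR adjusted p = 0.111) and Foxo1 in visual cortex (0.40, edgeR adjusted p = 0.129) for diet, and to Gab1 in medulla (-0.43, edgeR adjusted p = 0.438) for plasma. In liver 37 list genes were tested, 0 were called and 7 had an unadjusted p under 0.05 (5 higher, 2 lower), where 9.09% of all genes had one. The 3 with the smallest p there were Foxo1, a FoxO transcription factor (0.50, edgeR adjusted p = 0.157), Gab1 (0.64, edgeR adjusted p = 0.289) and Foxo3 (0.36, edgeR adjusted p = 0.42).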

How the data were processed

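The deposited table holds raw counts per gene, 21076 genes in 238 libraries, and 537 rows without counts were not tested. Per the labels' protocols, libraries were made with Smart-Seq2 and Nextera XT, which keep no strand. The submitters' processing notes name Trim Galore 0.3.7, STAR 2.5.3a, DESeq2 and GRCm38, without roles. Gene positions and exon lengths came from the GRCm38 annotation.

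Within each tissue, edgeR 4.0.16 (R 4.3.3) tested treated against control mice by quasi-likelihood with TMM factors, a filter on low counts (minimum 10, total 15) and Benjamini-Hochberg adjustment over all genes, at a threshold of 0.05. Across the brain, limma 3.58.1 tested 1 value per mouse (log2 CPM, prior count 2). Region-by-treatment effects and regions of control mice (112 libraries) used edgeR F tests. All 31 comparisons were run on the whole table. Simulated counts were put only through the fits of liver (diet), corpus callosum (plasma) and the brain as a whole (both experiments). The F tests were not run on simulated counts. Alternatives included DESeq2 1.42.0 and leaving out each mouse. P-values within a tissue and of 1 value per mouse measure the spread between mice. Those of the F tests and of neighbouring regions measure the spread between libraries. In these fits several libraries of 1 mouse entered without a mouse term. The F tests were also run with the mouse as a block, and the neighbouring regions were not.

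Libraries of 1 mouse shared deviations weakly (mean r = 0.04 in the diet and 0.0717 in the plasma experiment, against -0.0049 and -0.012 between mice), so mice, named by number in the labels, are the replicates. In 357 replicate pairs the lowest chi-square per degree of freedom was 1.29. The limits set by a count of 0 cover counting error only. The members and gene lists were chosen with earlier results of these data known. All members are named, and of other pathway genes those called or, where 0 were called, the 3 with the smallest p, of which some are not reported here. For likeness, the 3 genes with the largest r are named.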

Additional observations from a re-analysis of the deposited data

Results flagged for a closer look

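In the liver of restricted mice, DR mouse 67 lay far from the other DR mice in 3 of the genes: Ghr at 1490 CPM (others 406 to 604), Igfbp1 at 418 CPM (others 30.9 to 56.5) and Igfbp2 at 871 CPM (others 507 to 581). In the values over the brain, Igf1r stood apart in AL mouse 63 at 6.08 log2 CPM (others 6.126 to 6.135) and in aDR mouse 65 at 6.064 (others 6.124 to 6.143), and Ghr in PBS mouse 84 at 3.84 (others 3.689 to 3.706). Of 47 groups examined in this way 6 had such a sample, and chance gives about 1 in 20, which is 2.35.

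The plasma effect differed between brain regions for Igf2 (edgeR adjusted p = 0.000586) and Igfbp2 (edgeR adjusted p = 6.9e-05).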

How the results depend on the processing

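With DESeq2, calls within tissues rose from 0 to 2 for diet (Igf1 in olfactory bulb and Igfbp2 in liver) and from 2 to 5 for plasma. Leaving out 1 mouse gave 0 to 4 plasma calls within regions: 4 without PBS mouse 72, and 0 without PBS mouse 80, YMP mouse 77 or YMP mouse 81. Across the brain, 0 plasma calls became 2 with the mouse as a replicate block in voom (2.97% of all genes called) and 4 with no replicate block (16.7%), and 0 diet calls became 1 (Insr, adjusted p = 0.0299) with no replicate block (17.7%) and were 0 with the block (9.45%). Members whose plasma effect differed between regions numbered 2, and 0 to 2 when 1 mouse was left out. They numbered 0 without choroid plexus, corpus callosum and SVZ, an unplanned choice that takes out the regions with the largest differences. The cause was not tested. The block changed none of the other counts.

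Of 422 alternatives for 31 single-gene results, 379 kept direction and side of the threshold, 6 lost a call, 12 gained 1, 25 moved and 0 called values reversed. Depth limits Igfbp1 in brain and Igf2 in liver, where counts were too low to test. With 2 YMP libraries in corpus callosum, each of them decides the calls there.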
